A study of Mus musculus with 5 samples.

Results

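The genes described here encode the constitutive proteasome, the barrel-shaped protease that degrades ubiquitin-tagged proteins in the cytosol and nucleus. They were chosen by gene symbol (Psma, Psmb, Psmc, Psmd, Psme, Psmf or Psmg followed by a digit, without the immunoproteasome genes Psmb8, Psmb9 and Psmb10), not by measured values. This gave 47 genes of 19505 named genes on the array, each with 1 probe set. They comprised 13 genes of the core, 2 tissue-restricted core genes, 17 genes of the cap, 7 assembly chaperones, 6 regulators and 2 genes (Psmc3ip and Psme3ip1) whose symbols match although they encode no subunit: Psmc3ip is a meiotic recombination factor and Psme3ip1 a binding partner of the regulator Psme3. Of 48 names looked for, only Psmb5, which encodes the chymotrypsin-like catalytic subunit, had no named probe set and is not analysed here.

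RNA was measured on 5 mouse Clariom S arrays, 1 per sample, from 3T3-L1 cells, an established mouse line of preadipocytes that turns into fat cells in culture. Every sample was differentiated in one way, after 4 days of growth: 4 days with IBMX (0.5 mM), dexamethasone (1 µM) and insulin (5 µg/mL), a further 2 days with only the insulin, and 1 last day without additions. RPMI-1640 with 10% serum and antibiotics then replaced this medium for 72 h. In the exposed group (n = 3), human MM.1S multiple myeloma cells shared this medium across a membrane with 0.4 µm pores; in the control group (n = 2) the medium held no myeloma cells. The question is how adipocyte RNA responds to myeloma cells that can act only through the medium. The model is a single cell line, and the replicates are not said to be separate cultures, so p-values speak only of how these samples spread, and that spread could be technical. In RNA from whole cultures, fewer cells of a type and less RNA per cell cannot be told apart.

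Values are deposited log2 expression values from RMA, so a difference of 1 is a 2-fold difference; a probe set's level depends on its probes and does not order transcripts by abundance. Array medians lay between 4.80 and 4.88. The fat cell genes Fabp4 (12.34 to 12.41) and Adipoq (11.39 to 11.73) were high on every array and were the brightest of 10 adipocyte markers. Others were dimmer, with 5-array means of 6.24 for Cebpa, 5.81 for Slc2a4 and 3.17 for Lep. The mean of the 10 adipocyte markers was 8.79 to 8.88 on exposed and 8.87 to 8.89 on control arrays. Single markers moved both ways within it, with group means higher on exposed arrays for 3 and lower for 7. Retn was above the controls on every exposed array, by a mean of 0.46 (95% interval 0.056 to 0.86). Its unadjusted limma p was 0.031 and its adjusted p 0.93. Cebpa was below the controls on every exposed array, by a mean difference of -0.24, and Plin1 differed by -0.25 with overlap. None of the 10 had a limma adjusted p under 0.05. The mean of 7 B and plasma cell markers was 3.43 to 3.76 on exposed and 3.47 to 3.64 on control arrays, measured with mouse probes. Sdc1 stood apart among them with a 5-array mean of 7.49, where the others ranged from 2.26 for Jchain to 4.05 for Cd79a. Macrophage markers (4 measured) had a mean of 3.02 to 3.16 on exposed and 3.22 to 3.36 on control arrays, and 4 preadipocyte markers 7.91 to 7.92 and 7.95 to 8.03. The preadipocyte markers were uneven, with 5-array means from 3.50 for Cd34 to 10.45 for Dlk1. Dlk1 was below the controls on every exposed array, with a difference of -0.28 (-0.60 to 0.046). Of these 4 markers, 1 had a higher and 3 a lower group mean on exposed arrays. The part of these marker levels in the results below was not tested.

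The proteasome has a hollow core of stacked rings, outer rings of alpha subunits that gate the entrance and inner rings of beta subunits that hold the cutting sites. A cap, made of a base with a ring of ATPases and a lid, recognises ubiquitin chains, removes them, unfolds the protein and feeds it into the core. The transcription factor Nfe2l1 (also called NRF1) is known to raise proteasome genes together when proteasome activity falls. Proteasome inhibitors are used against multiple myeloma, and protein turnover by the proteasome also limits the amount of key adipocyte regulators.

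No proteasome gene was called between exposed and control adipocytes. Of the 47 genes, 0 were called higher and 0 lower at a limma adjusted p under 0.05, where the share of all 22206 probe sets called was 0%, and the smallest adjusted p among them was 0.93. Group means were higher on exposed arrays for 22 genes and lower for 25, with a median difference of -0.0037, against -0.00040 over all probe sets. This split moved with single arrays: it was 26 higher and 21 lower (median 0.036) without exposed array 1, and 16 and 31 (median -0.041) without exposed array 2. At an unadjusted p under 0.05, limma gave 1 gene, Psmd6, or 2.13% of the members, where 3.49% of all probe sets lay under it. The differences ran from -0.36 for Psma4 to 0.37 for Psmg4.

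The intervals limited how far these transcripts could have differed in array value. For all 47 genes the 95% interval of the difference lay within a 2-fold change in either direction, as it did for 92.9% of all probe sets and 96.1% of those at or above the median level. It lay within a 1.5-fold change for 39 of the 47 genes (83.0%), where the share was 52.7% of all probe sets and 61.7% of those at or above the median level, which 45 of the 47 genes were. The range over the 5 arrays had a median of 0.32 for the proteasome genes and 0.44 for all probe sets no dimmer than the median. These comparisons are not matched for level. The mean of the 47 genes was 8.57 to 8.71 by array, above the 90th percentile of probe set levels (8.40). Brighter probe sets varied less: the median range was 0.50 over all probe sets, against the 0.44 above. The part of level in the narrower intervals and ranges of the proteasome genes was not tested. In 42 of the 47 genes (89.4%) the difference between groups was smaller than the range among the 3 exposed arrays, which held for 81.8% of all probe sets. The remaining 5 were Psmd6, Psmc3, Psmb6, Psma8 and Psme2b.

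**Figure D1:**
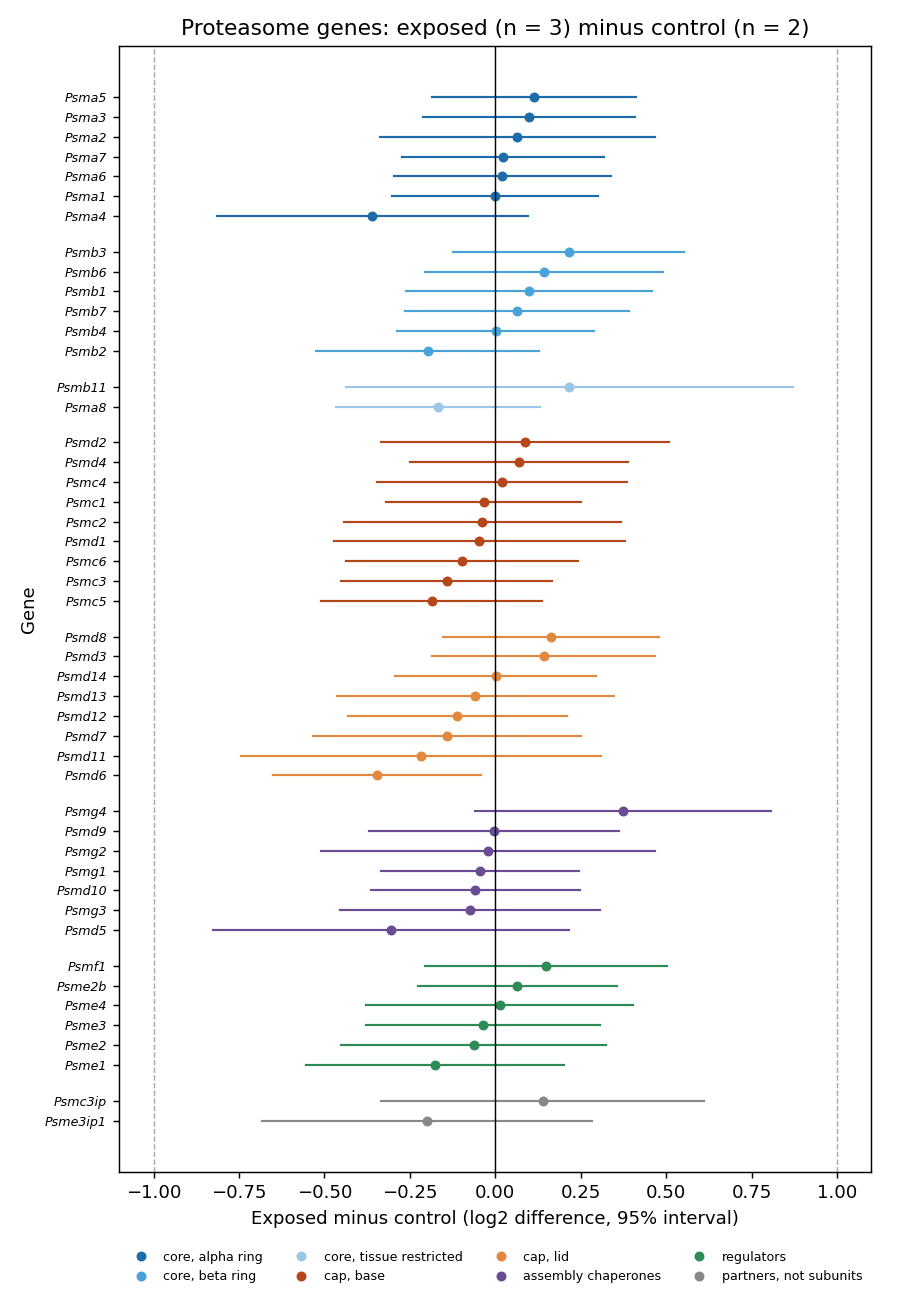
Difference between exposed (n = 3) and control (n = 2) arrays for each of the 47 genes, on the log2 scale (x axis); points are limma estimates, lines are 95% intervals, colours mark the part of the proteasome, and dashed lines mark a 2-fold difference. All intervals stay between the dashed lines, and that of Psmd6 (-0.65 to -0.043) is the only one that leaves out 0.

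The alpha ring genes of the core differed little, apart from Psma4. Group means were higher on exposed arrays for 5 of 7 and lower for 2, with a median difference of 0.022, and 0 passed the test. Psma4, which encodes an alpha subunit at the gate of the core, read 8.32, 8.81 and 8.32 on exposed arrays 1 to 3, and 8.83 and 8.86 on the control arrays. Exposed arrays 1 and 3 were thus low while exposed array 2 was next to the controls, and the difference was -0.36 (95% interval -0.82 to 0.096; limma adjusted p 0.93). Psma5, another alpha ring gene, read 11.34, 11.26 and 11.21 against 11.12 and 11.19. All exposed values of Psma5 lay above the controls, but by 0.11 (-0.19 to 0.41) in the mean. The other 5 genes (Psma1, Psma2, Psma3, Psma6 and Psma7) differed by -0.00041 to 0.098, and their exposed and control values overlapped. Psma1, for example, was at 9.49 ± 0.08 (SD, n = 3) on exposed arrays and at 9.49 on both control arrays.

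In the beta ring, group means were higher on exposed arrays for 5 of the 6 measured genes and lower for Psmb2, with a median difference of 0.081 and 0 genes past the test. Without exposed array 2 that median was -0.0041. Psmb6 encodes the caspase-like catalytic subunit. It read 9.37 on each of the 3 exposed arrays and 9.06 and 9.38 on the control arrays. The difference of 0.14 (-0.21 to 0.49) came from control array 1 alone, without which it was -0.018. Psmb7, which encodes the trypsin-like catalytic subunit, read 9.69, 9.94 and 9.76 against 9.71 and 9.76. The groups overlapped, with a difference of 0.063 (-0.27 to 0.39) that was -0.0088 without exposed array 2.

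Among the beta subunits without a cutting site, Psmb3 read 10.06, 10.17 and 10.35 against 10.00 and 9.96. Every exposed value was above the controls, and the difference was 0.21 (-0.12 to 0.55). Psmb2 went the other way, at 9.37, 9.56 and 9.62 against 9.72 and 9.70. Every exposed value of Psmb2 was below the controls, with a difference of -0.20 (-0.52 to 0.13). Neither passed the test (limma adjusted p 0.93 for both). Psmb1 (0.098) and Psmb4 (0.0014) overlapped between the groups.

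The tissue-restricted core genes were dim. Psma8, an alpha subunit of the testis, read 2.36, 2.44 and 2.49 against 2.56 and 2.63, a difference of -0.17 (-0.47 to 0.13). Psmb11, the beta subunit of the thymus, read 2.81, 2.67 and 3.43 against 2.52 and 2.98, so that exposed array 3 stood above the other 4 arrays. Its difference of 0.22 (-0.44 to 0.87) was -0.015 without exposed array 3 and -0.013 without control array 1. These levels lay below the median probe set (4.81), where RMA compresses differences, so their intervals limit RNA less than array values.

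Genes of the cap base lay close to 0. Group means were higher for 3 of 9 and lower for 6, with a median difference of -0.038, and 0 passed. The 6 ATPase genes, which encode the ring that unfolds substrates, differed by -0.19 (Psmc5) to 0.019 (Psmc4). Psmc5 read 8.61, 8.76 and 8.86 against 8.93 and 8.94. Psmc3 read 9.13, 9.08 and 9.18 against 9.36 and 9.19. Both were lower on every exposed array, by a mean of -0.19 (-0.51 to 0.14) for Psmc5 and -0.14 (-0.45 to 0.17) for Psmc3, which was -0.058 without control array 1. Of the non-ATPase base genes, Psmd4, a receptor for ubiquitin chains, read 9.86, 10.02 and 10.08 against 9.93 and 9.91, with overlap and a difference of 0.070 (-0.25 to 0.39). The scaffold genes Psmd1 and Psmd2 differed by -0.047 and 0.088, and their exposed arrays ranked in opposite orders: Psmd1 was highest on exposed array 1 and lowest on exposed array 3, and Psmd2 the reverse. Without exposed array 2 the base median was -0.087.

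The lid held the gene with the smallest p-value of all the members, Psmd6. Group means were higher for 3 of 8 lid genes and lower for 5, with a median of -0.085, and 0 passed. Psmd6, a structural subunit of the lid, read 7.79, 7.87 and 7.89 on exposed arrays and 8.27 and 8.13 on control arrays. The groups were apart, and the values within each group lay close together: 7.85 ± 0.05 (SD, n = 3) against 8.20 ± 0.10 (SD, n = 2). The difference was -0.35 (SE 0.12; -0.65 to -0.043), with an unadjusted limma p of 0.031 and an adjusted p of 0.93. With 1 array left out it ran from -0.42 to -0.28. Without control array 1, and with replicate number as a block, 0 proteasome genes had an unadjusted p under 0.05, Psmd6 included.

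Of the other 7 lid genes, 4 had a lower and 3 a higher group mean, and none passed. Psmd11, whose product clamps the lid to the core, read 7.32, 7.40 and 6.76 against 7.33 and 7.43. Its difference of -0.22 (-0.74 to 0.31) came from exposed array 3, without which it was -0.019. Psmd14, the deubiquitinase that cuts ubiquitin off substrates, was level at 8.14, 8.17 and 8.17 against 8.22 and 8.10, with a difference of 0.0011 (-0.29 to 0.30). Psmd8 was higher on every exposed array (10.48, 10.57 and 10.70 against 10.41 and 10.43), by 0.16 (-0.15 to 0.48). Psmd3, Psmd7, Psmd12 and Psmd13 differed by 0.14, -0.14, -0.11 and -0.058, and overlapped. Without exposed array 3 the lid median was -0.023.

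**Figure D2:**
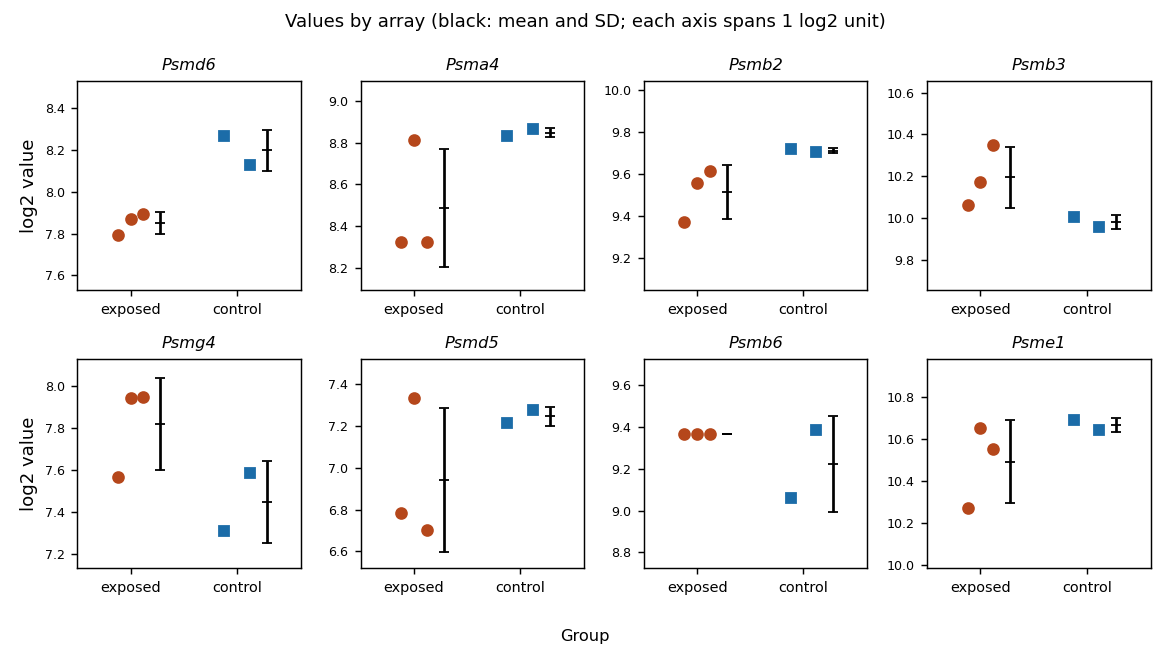
Log2 values (y axis, each panel spanning 1 log2 unit) of 8 proteasome genes on the exposed (circles, n = 3) and control (squares, n = 2) arrays, with mean and SD in black. Psmd6, Psmb2 and Psma4 are lower and Psmb3 is higher on every exposed array, while Psmg4, Psmd5, Psmb6 and Psme1 overlap between the groups.

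Assembly chaperones bind unfinished proteasomes and leave when the particle is complete. Group means were higher on exposed arrays for 1 of 7 and lower for 6, with a median of -0.044; without exposed array 1 these counts were 3 and 4. Psmg4, which with Psmg3 helps to assemble the alpha ring, had the largest difference in the positive direction of the 47 genes. It read 7.57, 7.95 and 7.95 against 7.31 and 7.59. Exposed array 1 lay between the controls, and the difference of 0.37 (-0.060 to 0.81) did not pass (limma adjusted p 0.93). Its partner Psmg3 differed by -0.073 (-0.45 to 0.31). Psmd5, a chaperone of the base, read 6.78, 7.33 and 6.70 against 7.21 and 7.28. As with Psma4, exposed arrays 1 and 3 were low and exposed array 2 was at the level of the controls (difference -0.31, -0.83 to 0.21). The base chaperones Psmd9 and Psmd10 differed by -0.0037 and -0.058, and the early core chaperones Psmg1 and Psmg2 by -0.044 and -0.020. Psmg1 was lower on every exposed array, but its 5 values lay between 8.35 and 8.46.

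The regulators bind the ends of the core in place of the cap, or inhibit it. Group means were higher for 3 of 6 and lower for 3, with a median of -0.011. None of the 6 separated the groups, where 17.3% of all probe sets did, a share that so few genes cannot be set apart from. Without exposed array 1, 5 of the 6 were higher. Psme1 and Psme2 encode the interferon-inducible activator that widens the gate of the core and works with the immunoproteasome. Psme1 read 10.27, 10.65 and 10.55 against 10.69 and 10.65, and Psme2 read 9.06, 9.45 and 9.40 against 9.38 and 9.36. Exposed array 1 was the lowest for both, and the differences were -0.18 (-0.56 to 0.20) and -0.063 (-0.45 to 0.32). Without exposed array 1 the difference in Psme2 was 0.057. Psme2b, a near copy of Psme2 whose probes may share signal with it, differed by 0.065.

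Psme3 encodes the related nuclear activator. It read 8.46, 8.70 and 8.70 against 8.72 and 8.59, a difference of -0.035 (-0.38 to 0.31). Psme4, the large activator linked to histone turnover, read 5.28, 5.49 and 5.67 against 5.38 and 5.55, a difference of 0.012 (-0.38 to 0.40). Psmf1, an inhibitor of the core, read 8.55, 8.64 and 8.85 against 8.60 and 8.46, a difference of 0.15 (-0.21 to 0.50). All 3 overlapped between the groups. The genes that match by symbol alone also overlapped: Psmc3ip read 6.95, 7.28 and 7.53 against 7.04 and 7.18 (difference 0.14), and Psme3ip1 read 8.72, 8.61 and 8.15 against 8.78 and 8.61 (difference -0.20).

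Core and cap differed slightly in direction. Of the 13 core genes, 10 had a higher and 3 a lower group mean on exposed arrays, with a median difference of 0.063. Of the 17 cap genes, 6 were higher and 11 lower, with a median of -0.047. The mean core value minus the mean cap value, taken within each array, was 0.97, 1.01 and 0.99 on exposed arrays and 0.88 and 0.95 on control arrays; the absolute size depends on the probes, and only its change between arrays can be read. All exposed arrays were above both control arrays, by a mean of 0.077 (0.99 ± 0.02, SD, n = 3, against 0.92 ± 0.05, SD, n = 2). Among all single probe sets, 17.3% also separated the groups in one direction or the other, so such a separation is not rare. The comparison of core and cap is a description with no test. It depended on single arrays: without control array 1 the difference was 0.038 and 7 of 13 core genes were higher, and without exposed array 2 it was 0.067 and 5 of 13 were higher. Because every exposed array lay above both control arrays, this difference had to stay above 0 with any 1 array left out.

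**Figure D3:**
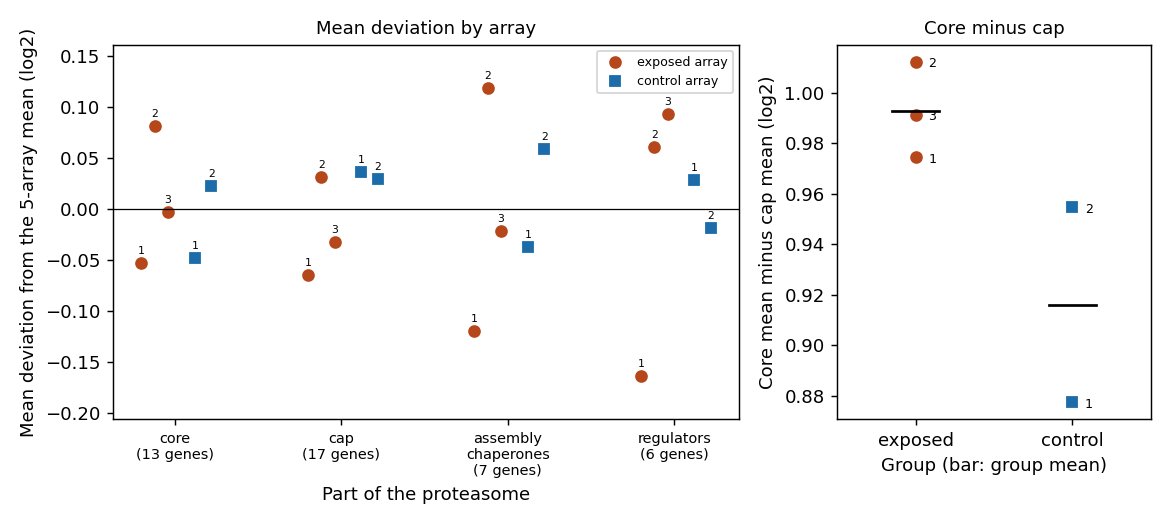
Left, mean deviation of each part's genes from their 5-array means (log2, y axis) on each exposed (circles) and control (squares) array, numbered by replicate; right, core mean minus cap mean within each array, with group means as bars. Exposed array 1 is the lowest array for all 4 parts, and core minus cap is 0.97 to 1.01 on exposed arrays and 0.88 and 0.95 on control arrays.

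Proteasome genes varied between arrays of the exposed group. Of the 47 genes, 22 (46.8%) had their lowest value on exposed array 1, and 1 gene on exposed array 2. Exposed array 1 was also the lowest array for 32.9% of all probe sets no dimmer than the median and for 24.6% of all probe sets. The mean deviation of the 47 genes from their own 5-array means was -0.083, 0.056 and 0.0059 on exposed arrays 1, 2 and 3, and it was -0.0071 and 0.029 for controls 1 and 2. The range among exposed arrays thus held both control values. By part, exposed array 1 was lowest for the regulators (-0.16) and the assembly chaperones (-0.12), and less so for the core (-0.053) and cap (-0.065). Exposed and control arrays did not overlap for 10 of the 47 genes (21.3%), where the share of all probe sets was 17.3%. These were Psma5, Psmb3 and Psmd8 on the higher side (3 genes; 8.5% of all probe sets) and Psma4, Psmb2, Psma8, Psmc3, Psmc5, Psmd6 and Psmg1 on the lower side (7 genes; 8.84% of all probe sets).

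**Figure D4:**
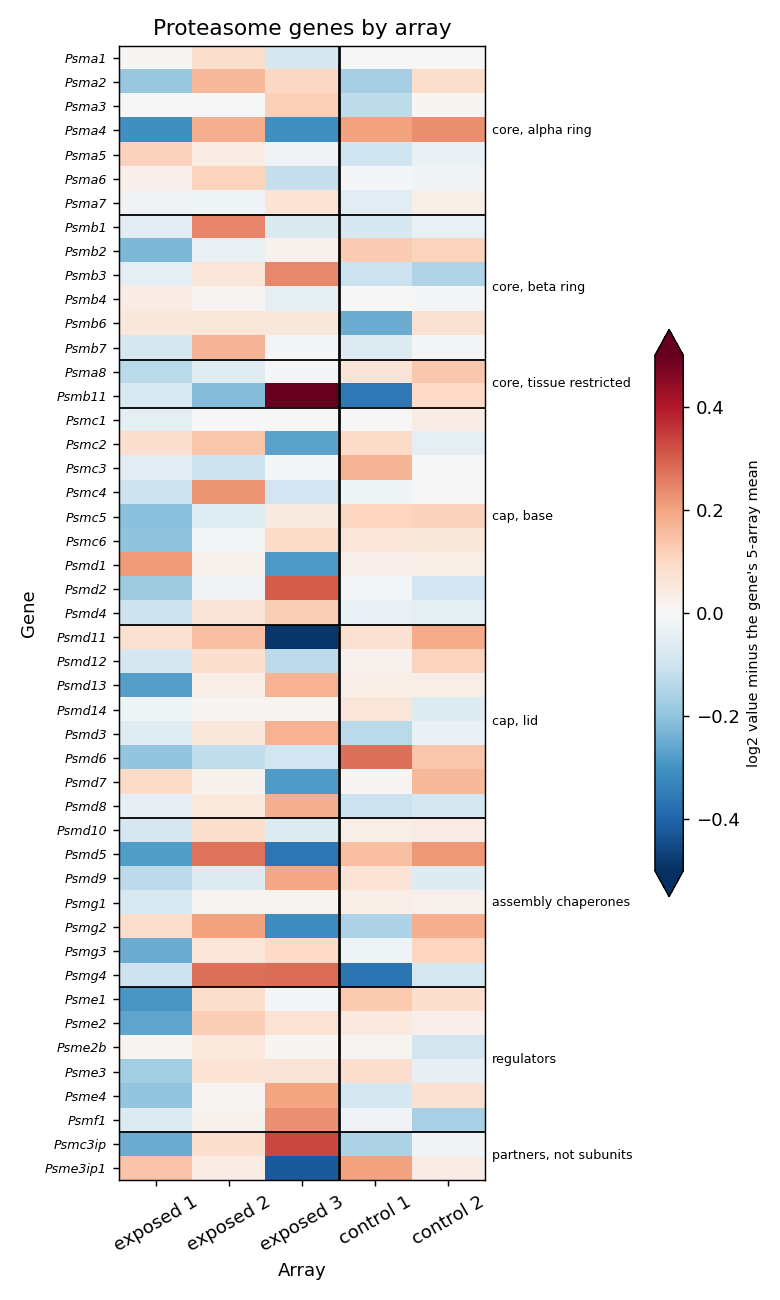
Log2 value of each proteasome gene (rows, by part) on each array (columns) minus that gene's mean over the 5 arrays; red is higher and blue lower, and the colour scale ends at 0.5 in each direction. Psma4 and Psmd5 are low on exposed arrays 1 and 3, Psmd6 is low on all exposed arrays, and most columns mix red and blue within a part.

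Genes that work with the proteasome gave no call either. The immunoproteasome genes, whose products replace the catalytic subunits under interferon, overlapped between groups for Psmb8 (-0.065, -0.48 to 0.35) and Psmb9 (0.049, -0.26 to 0.36). Psmb10 (0.13, -0.19 to 0.44) was higher on every exposed array, but exposed array 1 (6.798) was nearly level with control array 1 (6.797). In the list of proteasome partners, 10 of 12 names were measured, of which 3 were higher and 7 lower, with a median of -0.0049. Pomp, the chaperone that drives the final assembly of the core, read 9.50, 9.70 and 9.59 against 9.60 and 9.40, a difference of 0.10. The widest differences in that list were those of the ligase gene Ube3c (-0.17) and the small lid subunit gene Sem1 (0.17).

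Of the regulators of proteasome gene expression, 9 of 10 names were measured, with 3 higher, 6 lower and a median of -0.11. Nfe2l1 read 11.12, 11.10 and 10.55 against 11.23 and 11.21. It was lower on every exposed array, mostly on array 3, with a difference of -0.29 (-0.79 to 0.20). Nfya, a subunit of the CCAAT-binding factor, differed by -0.24. Ubiquitin and shuttle genes were measured for 8 of 14 names, with 2 higher, 6 lower and a median of -0.15. Vcp encodes the segregase that pulls tagged proteins out of membranes and complexes. It read 6.44, 6.93 and 6.35 against 7.17 and 7.03, lower on every exposed array by a mean of -0.53 (-1.02 to -0.036; unadjusted limma p 0.039, adjusted p 0.93). The shuttle gene Ubqln2 differed by -0.24. None of these 4 lists held a called gene.

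Neither of the motifs searched for set the proteasome genes apart by the share of promoters that held it, and other motifs were not searched. RefSeq promoters (GRCm38.p6, 250 bases before to 50 after the start) were found for 39 of the 47 genes. The motif TGACNNNGC, the core of the antioxidant response element that Nfe2l1 binds, was searched on both strands. It lay in the promoters of 5 of these 39 genes (12.8%) and of 14% of 27025 genes in all. The motif CCAAT, on both strands, lay in 15 of 39 (38.5%) and in 41.1% of all genes. The 5 sites are shown because they are the members' only matches to the element in these windows; each is given 5′ to 3′ on the gene's strand with up to 10 flanking bases, and capitals mark the match, in forward orientation for Psmb6 and Psmd9 and in reverse for the others.
Psmb6 (chr11:70525338-70525366, + strand): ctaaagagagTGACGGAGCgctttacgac
Psmc6 (chr14:45329587-45329615, + strand): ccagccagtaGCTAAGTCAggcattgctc
Psmd9 (chr5:123228149-123228177, + strand): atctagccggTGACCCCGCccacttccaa
Psmd12 (chr11:107479278-107479299, + strand): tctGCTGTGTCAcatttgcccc
Psme4 (chr11:30771758-30771786, + strand): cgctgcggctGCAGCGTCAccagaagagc
The 5 genes with a site differed by 0.14 (Psmb6), -0.098 (Psmc6), -0.0037 (Psmd9), -0.11 (Psmd12) and 0.012 (Psme4). Of these, 0 separated exposed from control arrays, where 17.3% of all probe sets did, and 5 genes are too few to set apart from that share. A match is a match of letters and does not show binding. Promoters of Psmb1, Psmb2, Psmb7, Psma8, Psmc3, Psmd3, Psmd7 and Psmg2 were not used here.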

How the data were processed

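RNA of 3 exposed and 2 control samples was hybridised to 1 array each. The deposited log2 values were made by the authors with RMA (background correction, quantile normalization and probe set summary) in Partek (per the submitters' processing notes). Software versions and the build of the annotation are not given in the sources used here. Without detection calls, the table lists 22206 probe sets, 19572 of them with 1 gene symbol in the platform annotation and 2634 with none; 8 of the 47 members held the same value on at least 2 arrays. The number of arrays limits precision.

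A two-sided limma fit (version 3.58.1, R 4.3.3; lmFit, then eBayes) with exposure as its single term was run on the whole table, p-values were adjusted by Benjamini-Hochberg, and 0.05 was the threshold for a call. It had 3 residual degrees of freedom and a prior worth 3.17 more. The fit was tested on simulated data in which 200 probe sets changed by a log2 difference of 2 in either direction. Changes as small as those of the members were not simulated, so that test does not show whether they would be called. Members and lists were chosen with earlier results of these data known, so list counts, medians and core minus cap carry no test.

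Values on every array are given for Psmb6, Psmb7, Psmd4, Psmd14, Psme1 to Psme4, Psmf1, Pomp and Nfe2l1 whatever their result and for the 2 members with the largest difference in each part; Vcp had the largest difference in its related list. From each list of genes that work with the proteasome, regulate its genes or handle ubiquitin, the 2 genes with the largest difference are named. Other values are given to account for every member. The cell type markers were not chosen by their difference, and some with larger differences than those given are not named. Alternatives were no moderation, a trended robust prior, array weights, a level filter, leaving out each array, blocks, median centring and the unadjusted p.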

Additional observations from a re-analysis of the deposited data

How the results depend on the processing

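The count of called probe sets and of called proteasome genes was 0 under every alternative that adjusted p-values; an unadjusted p under 0.05 in its place gave 776 probe sets and 1 proteasome gene. That probe set count was 1378 without control array 1 and 362 with the level filter, where fewer were tested. That proteasome count was 0 without control array 1 and with the replicate block, and 2 without exposed array 2 and with array weights. Of 23 named members, 15 kept their sign in every fit that included them. Most of the 23 were named for the largest differences of their part, so this count does not describe the members as a whole. Of those named whatever their result and not for the size of their difference, Psmd4 kept its sign. Psmb6, Psmb7, Psmd14, Psme2, Psme3 and Psme4 did not. With 1 array left out, differences ran from -0.14 to 0.057 for Psme2, -0.099 to 0.045 for Psme3, -0.018 to 0.30 for Psmb6, -0.015 to 0.45 for Psmb11, -0.083 to 0.11 for Psme4, -0.0088 to 0.12 for Psmb7, -0.061 to 0.064 for Psmd14 and -0.0013 to 0.29 for Psmc3ip. Among members that kept their sign, leaving out 1 array shrank Psmb2 to -0.13, Psmc5 to -0.12 and Psme1 to -0.066 (without exposed array 1), Psmb3 to 0.14, Psmd4 to 0.022, Psmd5 to -0.19, Psmd11 to -0.019, Psmf1 to 0.063 and Psme3ip1 to -0.030 (without exposed array 3), and Psmc3 to -0.058 and Psmg4 to 0.24 (without control array 1). Over the same fits, core minus cap ran from 0.038 to 0.12, and the medians from -0.0041 to 0.13 for the beta ring, -0.087 to -0.018 for the base and -0.13 to -0.023 for the lid. With a control array left out, the spread comes from the exposed arrays, and the control left is assumed to share it. The replicate block, in which exposed array 3 has no partner, gave a lid median of -0.023 and differences of -0.015 for Psmb11, -0.0042 for Psmd14, -0.083 for Psme4 and -0.0013 for Psmc3ip, and called 0 genes. The labels give only a shared number: deviations of same-numbered arrays correlated at -0.014 and -0.032 over probe sets. Deviations of the 2 control arrays from their own mean mirror each other. Pairing exposed arrays 1 and 2 with the other control array therefore had to give 0.014 and 0.032. These correlations cannot show whether shared numbers mark pairs. A block of neighbouring title numbers gave 0.057 for Psme2 and 0.045 for Psme3, and median centring gave -0.017 for Psmd14 and -0.0056 for Psme4. The causes of these shifts were not tested. Averaging probe sets of a gene changed nothing because each member has 1, and the level filter left no value for Psma8 and Psmb11. Without detection calls, the distance of dim values from background is unknown.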
